A study of Homo sapiens with 21 samples.

Results

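The genes of the factors that start and extend protein synthesis were examined for peaks in chromatin of CAMA1 cells. They are the protein-coding genes on chromosomes 1 to 22 and X whose symbol begins with EIF or EEF and a number, without those that hold the letter K (kinases, methyltransferases and the subunit EIF3K). This rule took 57 of 19974 protein-coding genes. Of the 57, 50 code for initiation factors, their regulators or eIF5A, and 7 bear EEF symbols, those of elongation factors and their partners.

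CAMA1 is an oestrogen receptor-positive line of breast cancer cells whose labels give FGFR1, the gene of a fibroblast growth factor receptor, as amplified. Chromatin immunoprecipitation with sequencing (ChIP-seq) asked where FGFR1 lies on the genome, and whether it still lies there once FOXA1 is knocked down. The 7 groups of 2 libraries were FGFR1 after siRNA against FOXA1 (siFOXA1), FGFR1 after non-targeting siRNA (siNT), and, in cells without transfection, FGFR1, Pol II S5P, H3K4me3, H3K27ac and FOXA1. All cells were of a passage below 10 and had been deprived of estradiol for 48 h, and the transfected cells were taken 72 h after transfection; the 7 inputs were not used here.

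Initiation factors bring the initiator tRNA and the capped mRNA to the small ribosomal subunit, and elongation factors deliver each aminoacyl-tRNA and move the ribosome along the message. Most of these genes, but not all, are transcribed in nearly every cell. Many of their mRNAs begin with a C followed by a run of pyrimidines. This is the terminal oligopyrimidine (TOP) tract, through which mTOR signalling controls the translation of such mRNAs. H3K4me3 and H3K27ac mark the promoters of active genes, and Pol II S5P is RNA polymerase II phosphorylated on serine 5 of its repeats, the form found near transcription starts.

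RefSeq promoter sequences (GRCh38.p14) matched 47 of the 57 genes. A start at C followed by 4 or more pyrimidines was found in 12 of the 47 (25.5%), against 987 of the 15812 genes with an entry (6.24%). The 12 windows of 30 bases are shown because the letters at their RefSeq start match such a tract. The match is of letters only, and whether these mRNAs act as TOP mRNAs was not tested. Each window reads 5′ to 3′ on the gene's strand, with 10 bases before the start, and capitals mark the tract from the start base.
EEF1A1 (chr6:73521013-73521042, minus strand): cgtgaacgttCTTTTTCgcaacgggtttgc
EEF1B2 (chr2:206159885-206159914, plus strand): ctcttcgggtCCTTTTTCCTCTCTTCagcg
EEF2 (chr19:3985444-3985473, minus strand): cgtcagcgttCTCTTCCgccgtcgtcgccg
EIF2A (chr3:150546777-150546806, plus strand): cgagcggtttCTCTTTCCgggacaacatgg
EIF2D (chr1:206612446-206612475, minus strand): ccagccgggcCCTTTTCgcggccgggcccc
EIF2S3 (chrX:24054946-24054975, plus strand): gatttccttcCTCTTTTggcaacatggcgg
EIF2S3B (chr12:10505880-10505909, plus strand): gactttcttcCTCTTTTggcaacatggcgg
EIF3D (chr22:36529147-36529176, minus strand): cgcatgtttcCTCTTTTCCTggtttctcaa
EIF3F (chr11:7987327-7987356, plus strand): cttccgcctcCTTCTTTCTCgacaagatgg
EIF3M (chr11:32583821-32583850, plus strand): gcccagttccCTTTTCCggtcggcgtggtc
EIF4A2 (chr3:186783567-186783596, plus strand): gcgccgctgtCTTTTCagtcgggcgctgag
EIF4B (chr12:53006446-53006475, plus strand): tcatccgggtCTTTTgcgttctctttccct
The tract was 5 to 16 bases long. EIF2S3, the gamma subunit of eIF2, and its copy EIF2S3B differed in 2 of the 30 bases.

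In the full windows of 250 bases before to 50 after the start, searched on both strands, GGGCGGG (GC box) was found in 27 of 47 (57.4%) against 50.3% of all genes. CCGGAAG, a core of ETS factor motifs, was found in 14 (29.8%) against 16.5%, and the E-box CACGTG in 10 (21.3%) against 10.9%. TATAAA was found in 3 (6.38%) against 12.4%, and TGTTTAC, the forkhead core to which FOXA1 binds, in EIF3D alone (2.13%) against 3.76%. None of these motifs contains another, and a match of letters in a window names no site.

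The 250 bases before the start are shown for EEF1A1 and EIF2D, the members with overlapping FGFR1 peaks in all 4 transfected lists, and for EEF2 and EIF4A3, which stood among the highest in untransfected cells. Capitals mark matches to the motifs above.
EEF1A1 (chr6:73521033-73521282, minus strand): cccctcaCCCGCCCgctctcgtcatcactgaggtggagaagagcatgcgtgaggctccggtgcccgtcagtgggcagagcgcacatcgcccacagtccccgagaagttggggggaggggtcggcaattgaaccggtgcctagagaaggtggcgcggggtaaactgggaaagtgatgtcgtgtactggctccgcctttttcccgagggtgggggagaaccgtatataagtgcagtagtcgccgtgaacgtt
EIF2D (chr1:206612466-206612715, minus strand): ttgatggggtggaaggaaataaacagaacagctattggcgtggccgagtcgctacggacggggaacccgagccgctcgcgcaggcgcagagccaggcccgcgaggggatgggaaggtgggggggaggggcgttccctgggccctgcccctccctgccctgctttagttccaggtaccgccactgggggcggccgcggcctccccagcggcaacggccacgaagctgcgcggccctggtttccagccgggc
EEF2 (chr19:3985464-3985713, minus strand): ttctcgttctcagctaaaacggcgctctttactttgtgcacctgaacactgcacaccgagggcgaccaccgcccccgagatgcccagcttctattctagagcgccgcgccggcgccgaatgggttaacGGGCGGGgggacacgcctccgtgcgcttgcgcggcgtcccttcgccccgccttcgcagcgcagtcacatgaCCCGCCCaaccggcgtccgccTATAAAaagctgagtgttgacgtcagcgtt
EIF4A3 (chr17:80147129-80147378, minus strand): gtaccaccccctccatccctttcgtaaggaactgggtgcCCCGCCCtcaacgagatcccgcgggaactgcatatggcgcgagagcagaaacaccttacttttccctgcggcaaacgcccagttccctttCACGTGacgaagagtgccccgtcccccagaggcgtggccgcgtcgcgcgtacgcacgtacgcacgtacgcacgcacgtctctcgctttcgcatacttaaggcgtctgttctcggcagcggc
Counted from the start, EEF2 held TATAAA from -30 and GC boxes from -51 and -122. EIF4A3 held the E-box from -121 and a GC box from -211, and EEF1A1 held a GC box from -243. None of the letters searched were in the EIF2D window.

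A gene was called for a target when both lists of the group held a peak within 1 kb of the lower or the upper end of the gene. FGFR1 in untransfected cells was called at 24 of the 57 translation factor genes (42.1%), against 3949 of 19974 genes (19.8%). Pol II S5P was called at 44 (77.2%) against 38.8% of all genes, H3K4me3 at 51 (89.5%) against 66.4%, H3K27ac at 52 (91.2%) against 67.4%, and FOXA1 at 32 (56.1%) against 32.4%. For each target the share of the translation factor genes thus stood above that of all genes. Of the 12 genes with a pyrimidine tract at the start, FGFR1 was called at 4, namely EEF2, EIF2D, EIF3D and EIF4A2, and Pol II S5P at 9. No test of these shares was made, since genes are not replicates and the genes were chosen with results of these lists known.

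**Figure D1:**
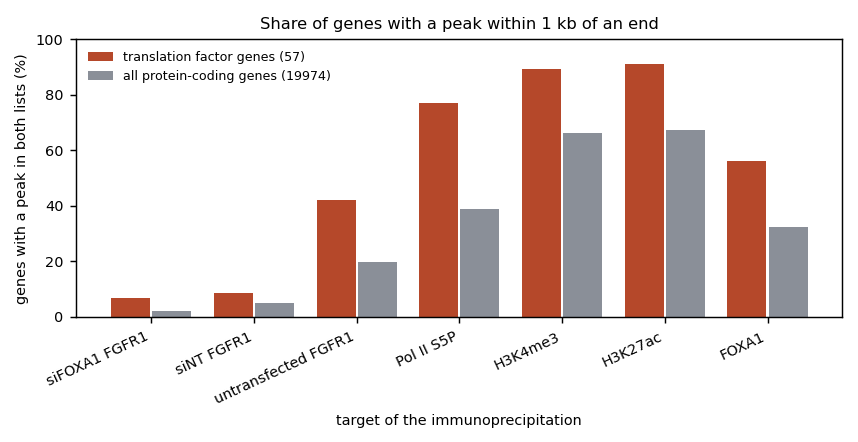
Share of genes (%) with a peak within 1 kb of an end in both lists, for 57 translation factor genes and 19974 protein-coding genes, by group. The bar of the translation factor genes is the taller in all 7 groups, with 42.1% against 19.8% for untransfected FGFR1 and 7.02% against 2.24% for FGFR1 after siFOXA1; there are no error bars because each bar is a count over genes.

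The lists differ in length, and this bears on every count. On the chromosomes used, FGFR1 had 4332 and 5056 peaks after siFOXA1, 6007 and 6594 after siNT, and 5341 and 13135 in untransfected cells; the other lists had 12267 to 154358. The caller's background, which stands in for depth as the lists give no read counts, was 2.11 and 2.2 fragments per position after siFOXA1, 2.19 in both siNT lists, and 3.4 and 3.5 in untransfected FGFR1. H3K4me3 was called at 4 of 5 luminal marker genes (not ESR1, which had H3K27ac) and at 0 of 4 markers of other cell types. The labels do not say whether replicates were separate cultures, so p-values measure only the spread between these lists, which may be technical.

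The untransfected FGFR1 replicates were uneven at these genes. Replicate 1 held peaks at 24 of the 57 and replicate 2 at 41, which included all 24; 17 genes had a peak in replicate 2 only and 16 in neither. Over all genes, 3968 were scored in replicate 1 and 8237 in replicate 2. The fold enrichment, the authors' own value for each peak over the caller's background, was 3.55 to 6.88 at the 17 genes with a peak in replicate 2 only (median 4.66). At the 24 called genes replicate 2 gave 4.44 to 14.7 (median 8.77), so the 2 sets overlap and the genes missed by replicate 1 were mostly those with a weaker peak in replicate 2. The peaks of the 2 lists overlapped by at least 1 bp at all 24 called genes (19.7% of all genes under that rule).

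The FGFR1 calls lay within the Pol II S5P calls. All 24 genes with FGFR1 were among the 44 with Pol II S5P (54.5% of them), and FGFR1 was called at 0 of the 13 genes without it. Over all genes the shares were 47.1% with Pol II S5P and 2.45% without, from which 0 of 13 cannot be told apart. Of all 3949 genes called for FGFR1, 3650 (92.4%) had Pol II S5P, so 24 of 24 lies near the general share. At the 7 translation factor genes with H3K4me3 and no Pol II S5P call, all of which had H3K27ac, FGFR1 was called at 0. Over all genes the share was 5.29%, from which 0 of 7 cannot be told apart.

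The strength of Pol II S5P differed in the same order. A percentile gives the place of a gene's strongest peak among all peaks of its list by fold enrichment, with 0 where there is no peak. The mean Pol II S5P percentile of the 2 lists had a median of 89.9 (52 to 98.8) at the 24 genes with FGFR1 in both lists and 64.6 (0 to 93.9) at the 17 with a peak in replicate 2 only. It was 12.9 (0 to 60.9) at the 16 with none, 5 of which had no peak of any target in any list and count as 0. The ranges overlap, so a strong Pol II S5P peak did not by itself mark a gene called for FGFR1. Every gene above 60.9 had an FGFR1 peak in replicate 2 at least, so at strong Pol II S5P the missing calls rest on replicate 1. All genes in the same states had medians of 81.9, 57.6 and 0. H3K4me3 had medians of 94.7, 88.5 and 73.6 in the 3 states and H3K27ac 98.2, 95.5 and 87.4.

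**Figure D2:**
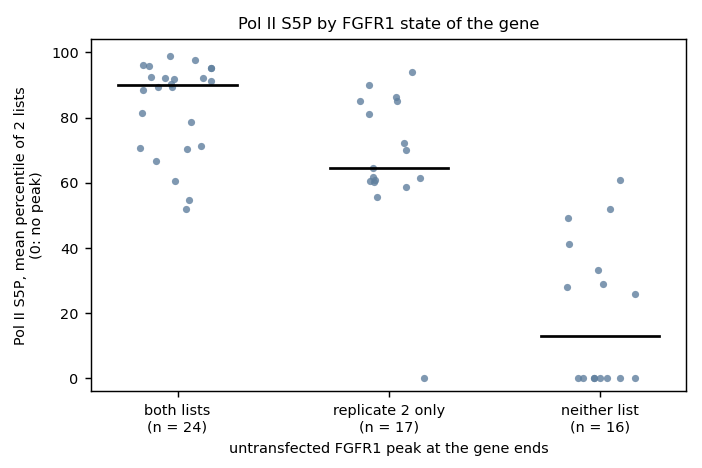
Mean Pol II S5P percentile of the 2 lists (0 to 100, 0 where there is no peak) for each of the 57 genes, split by whether FGFR1 had a peak in both untransfected lists (24 genes), in replicate 2 only (17) or in neither (16). Lines are medians, at 89.9, 64.6 and 12.9, and the point at 0 in the middle column is EIF2S3. Of the 16 genes in the last column, 5 had no peak of any target in any list.

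FOXA1 went with a higher share of FGFR1 calls. FGFR1 was called at 17 of the 32 genes with FOXA1 (53.1%) and at 7 of the 25 without (28%), against 35.4% and 12.3% over all genes. Among genes with H3K4me3 and Pol II S5P, FGFR1 was called at 17 of 29 with FOXA1 (58.6%) and at 7 of 15 without (46.7%), against 52.3% and 41.4% over all genes. In full, 17 translation factor genes carried all 5 targets, 12 all but FGFR1, 7 all but FOXA1, and 8 all but FGFR1 and FOXA1. Of the rest, 4 had H3K4me3 and H3K27ac alone, 3 had these with FOXA1, 1 had H3K27ac alone and 5 had none. These full patterns were not counted over all genes. Some FOXA1 peaks lay at the end away from the start. Of 29 genes with a FOXA1 peak and a known strand, the strongest lay there in 8 (replicate 1) and 9 (replicate 2). The same share over all genes was not computed. A gene called for both FOXA1 and FGFR1 need not carry them at the same end. At EIF1AD, EIF1B, EIF4A2, EIF4A3 and EIF4G1 the strongest FOXA1 peak lay at the other end in both lists. Their strongest FGFR1 peak lay at the start. The strongest FOXA1 peaks were at EIF2B5 (fold 30.5 and 30.7) and EIF4E3 (28.4 and 26.2), neither of which was called for FGFR1. EIF2B5 had an FGFR1 peak in replicate 2 only (4.22). The EIF4E3 peaks of FOXA1 lay at its other end, 70794 and 70807 bp from the start.

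**Figure D3:**
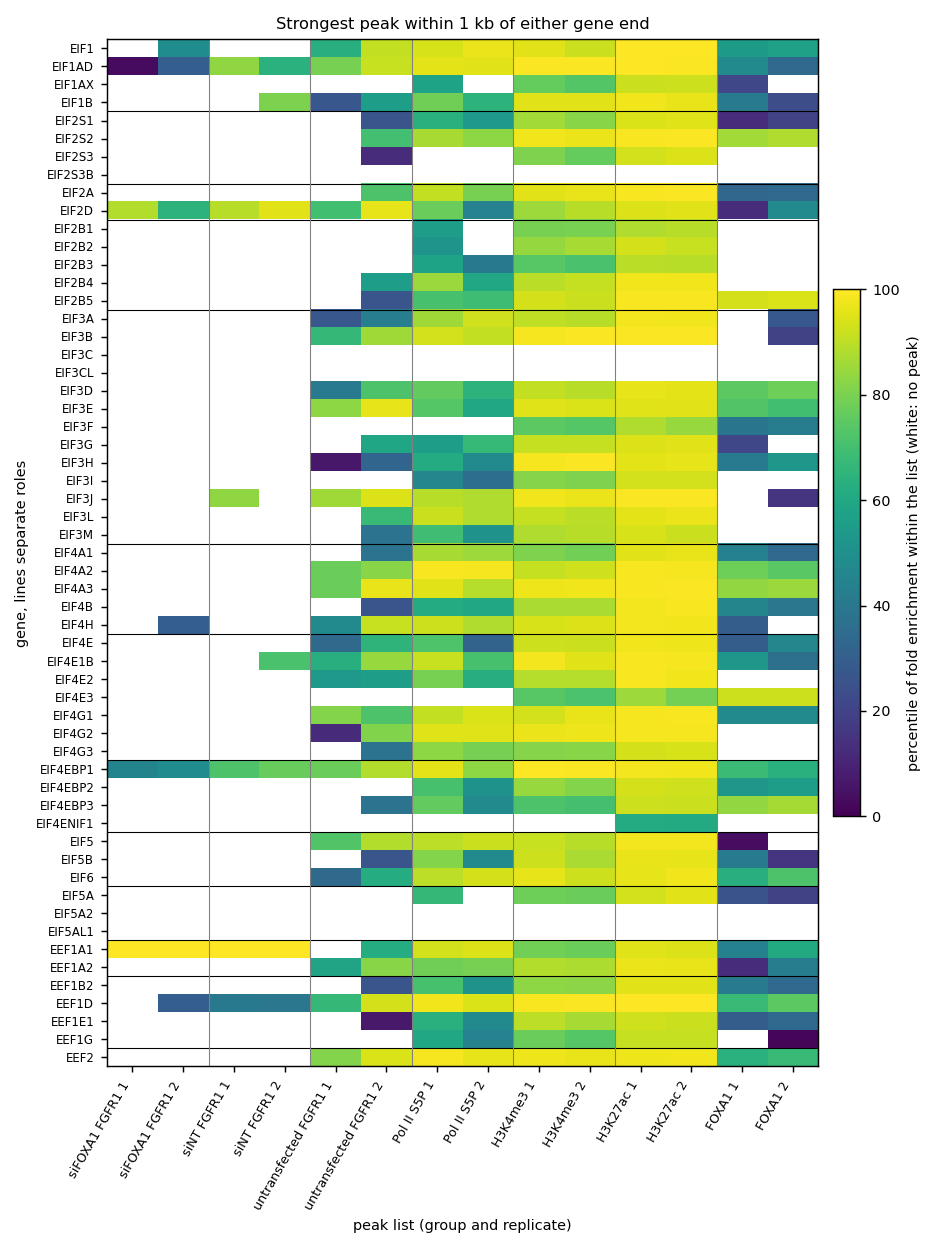
Percentile of the strongest peak within 1 kb of either end of each gene, within each of the 14 peak lists (columns, group and replicate); rows are the 57 genes in order of role and white is no peak. EEF1A1 is near 100 in the 4 transfected lists and white in untransfected FGFR1 replicate 1, and 5 genes are white throughout.

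Among the factors that scan for the start codon, EIF1, which guards against starting at the wrong codon, had FGFR1 folds of 5.91 and 10.4. Its relative EIF1B had 4.55 and 5.55, and EIF1AD, whose protein resembles eIF1A, had 7.28 and 10.7. EIF1AX, which encodes eIF1A itself, had none and carried Pol II S5P in replicate 1 only (6.48). Thus 3 of these 4 genes were called (19.8% of all genes), and the X-linked one was not. The EIF1AD peak also lies within 1 kb of an end of BANF1.

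The genes of eIF2, the GTPase that carries the initiator tRNA, and of eIF2B, which recharges it with GTP, were not called for FGFR1 in any of 9 cases. Over all genes 19.8% were called, and whether 0 of 9 differs from that share was not tested. EIF2S2, eIF2 beta, had a peak in replicate 2 (6.66), as did EIF2S1, eIF2 alpha (4.22), and EIF2S3 (3.77). EIF2B4 (5.55) and EIF2B5 (4.22) also had a peak in replicate 2 only. These absences therefore rest on replicate 1 for 5 of the 9 genes. Pol II S5P was called at 5 of the 9 (38.8% of all genes), H3K4me3 at 8 (66.4%). EIF2D, which can place the initiator tRNA without eIF2, had 6.37 and 14 for FGFR1, while EIF2A, an alternative initiator tRNA factor, had 6.88 in replicate 2 only.

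FGFR1 was called at 6 of the 13 genes of eIF3 (19.8% of all genes), the large scaffold that holds the small subunit and the mRNA. EIF3J, the loosely bound subunit, had the highest mean FGFR1 percentile of the 57 (90.3), with folds of 8.19 and 12.7. EIF3E followed at 89.7 (7.73 and 14.2), and EIF3B, a core subunit, had 6.14 and 8.88. EIF3D, a subunit that can itself bind the cap, had 5 and 6.88, and EIF3A, the largest core subunit, 4.55 and 4.89. EIF3H was the weakest of the 24, at a mean percentile of 19.4 (3.87 and 4.44). EIF3L had Pol II S5P folds of 13.7 and 11, higher than those of EIF3J in replicate 1, with an FGFR1 peak in replicate 2 only (6.44). EIF3F, EIF3G, EIF3I and EIF3M, all subunits of the same complex, were not called for FGFR1 either. Of these, EIF3G (5.77) and EIF3M (4.66) had a peak in replicate 2 only, and EIF3F and EIF3I had none.

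Of the helicases that unwind the mRNA leader, EIF4A1 and its paralogue EIF4A2 parted. EIF4A2 had FGFR1 folds of 7.05 and 8.22 and the strongest Pol II S5P peaks of the 57 genes (23.9 and 19.9). EIF4A1 had 4.66 in replicate 2 only, with Pol II S5P at 11.8 and 10.4. EIF4A3, the helicase of the exon junction complex, had 7.05 and 14.7, the highest value of replicate 2 among the 57 genes. Of the helicase cofactors, EIF4H had 5.23 and 10.7 and EIF4B 4.22 in replicate 2 only.

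FGFR1 was called at 5 of 7 genes of the cap-binding eIF4E and scaffold eIF4G families, against 19.8% of all genes. EIF4E, the cap-binding protein, had 4.78 and 6.22, and EIF4E2, which competes with it and represses translation, 5.46 and 5.55. EIF4E1B had 5.91 and 8.66, but that peak lies at its other end, within 1 kb of an end of TSPAN17. EIF4E3 had no FGFR1 and no Pol II S5P peak. EIF4G1, the main scaffold, had 7.51 and 6.88, and EIF4G2, which lacks the eIF4E site, 4.09 and 7.99. EIF4G3 had 4.66 in replicate 2 only. So in each of these families at least 1 paralogue was called and at least 1 was not.

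The inhibitors that hold eIF4E away from eIF4G also differed. EIF4EBP1, released from eIF4E when mTOR phosphorylates it, had FGFR1 folds of 7.05 and 9.55. EIF4EBP2 had none and EIF4EBP3 had 4.66 in replicate 2 only, while Pol II S5P was called at all 3 (38.8% of all genes). EIF4EBP1 (chr8:38030534-38060365) lies 351 kb from the FGFR1 gene, which the labels give as amplified. Within 500 kb of its middle lay 41 and 199 FGFR1 peaks, against means of 1.76 and 4.34 peaks per Mb over the genome. Copy number was not measured in these files, and its part in the EIF4EBP1 peaks was not tested. EIF4ENIF1, which carries eIF4E into the nucleus, had H3K27ac only within 1 kb of its ends (4.79 and 4.84). The start in RefSeq's promoter table lies outside these windows.

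FGFR1 was called at 2 of the 3 genes of eIF5, eIF5B and eIF6, against 19.8% of all genes. EIF5, which triggers GTP hydrolysis by eIF2, had 6.6 and 9.55, and EIF6, which keeps the large subunit apart, 4.78 and 6. Both EIF6 peaks lie at its other end, near ends of MMP24 and MMP24OS. EIF5B, the subunit joining GTPase, had 4.22 in replicate 2 only. None of the 3 eIF5A genes, whose product carries hypusine and helps the ribosome through difficult sequences, was called: EIF5A had H3K4me3 (80.6 and 81.7) and Pol II S5P in replicate 1 only (7.58), and EIF5A2 and EIF5AL1 had no peak in any list.

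Of the elongation factors, EEF2, the translocase, stood high in both lists, with FGFR1 folds of 7.51 and 12.2 and Pol II S5P folds of 22.3 and 15.5. EEF1A2, the eEF1A paralogue of nerve and muscle, had 5.69 and 8.22. EEF1A1, which delivers aminoacyl-tRNA in most cells, had no FGFR1 peak in replicate 1 and 6 in replicate 2, although its Pol II S5P folds were 14.4 and 13.9. Of the genes of eEF1B, the exchange factor of eEF1A, EEF1D had 6.14 and 11.8 with the strongest H3K27ac of the 57 (68.5 and 77.4), EEF1B2 had 4.22 in replicate 2 only, and EEF1G had none. EEF1E1, an auxiliary protein of the tRNA synthetase complex, had 3.55 in replicate 2 only. The peak at EEF1D also lies near an end of TIGD5. In all, 7 of the 24 genes called for FGFR1 shared their strongest peak with the end of another gene in at least 1 list. The same share over all genes called for FGFR1 was not computed, so whether 7 of 24 is unusual is not known.

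Of the 44 genes with Pol II S5P, 20 were not called for FGFR1. The 5 with the strongest Pol II S5P among them were EEF1A1 (mean percentile 93.9), EIF3L (90), EIF4A1 (86.2), EIF2S2 (85.1) and EIF2A (85). All 5 had an FGFR1 peak in replicate 2.

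No H3K4me3 call was made at 6 of the 57 genes. EIF3C and EIF3CL are near-identical copies on chromosome 16, and reads from either can be placed at both or at neither, so their lack of any peak is uncertain. EIF5AL1 and EIF2S3B are copies of EIF5A and EIF2S3 and likewise had no peak in any of the 14 lists, as did EIF5A2, the second eIF5A gene. EIF4ENIF1 had no H3K4me3 peak within 1 kb of its annotated ends. The start that RefSeq's promoter table gives for it lies inside the gene, more than 1 kb from either end. A peak at that start was therefore not scored, and the missing call does not show that its promoter lacks H3K4me3.

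FGFR1 summits lay close to a listed start. Each summit was measured from the nearest of the gene's starts in RefSeq's promoter table, which lists more than 1 for some genes. This shortens distances, and a gene may be measured from different starts in different lists, as at EIF5A (FOXA1 at -308 and 304 bp). Among genes with a known strand and a summit within 1 kb of that start, the median FGFR1 summit lay at -60 bp in replicate 1 (16 genes). In replicate 2 it lay at -50 bp (30 genes), also before the start. Pol II S5P summits lay after the start, at medians of 39 bp (36 genes) and 32 bp (32 genes). H3K4me3 summits lay farther into the gene, at 220 and 218 bp (41 genes in each list), and H3K27ac at 158 bp in both. FOXA1 summits lay before the start, at -148 bp (20 genes) and -134 bp (18 genes). The middle 50% of the FGFR1 summits ran from -148 to 44 bp and from -114 to 31 bp, so they overlapped those of Pol II S5P, at -130 to 56 bp and -102 to 50 bp. FGFR1 peaks had a median width of 310 and 472 bp, against 2972 and 2984 bp for H3K4me3.

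**Figure D4:**
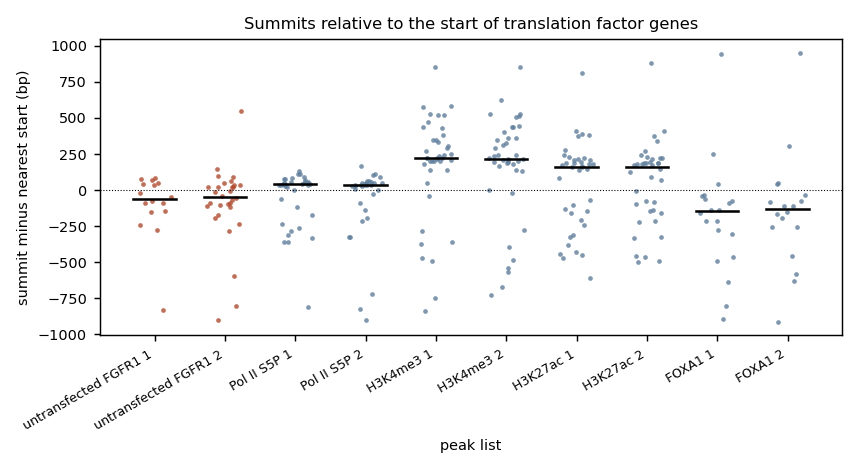
Distance (bp) of the summit of the strongest peak from the nearest listed start of its gene, in the 10 lists from untransfected cells. Shown are translation factor genes with a known strand and summits within 1 kb. The start used for a gene can differ between lists. Positive values lie after that start and lines are medians. FGFR1 medians are -60 and -50 bp, Pol II S5P 39 and 32 bp, H3K4me3 220 and 218 bp.

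After transfection FGFR1 was called at few translation factor genes. It was called after siFOXA1 at 4 genes (7.02%), namely EEF1A1, EIF1AD, EIF2D and EIF4EBP1, against 2.24% of all genes. After siNT it was called at 5 (8.77%), the same 4 and EEF1D, against 5.15% of all genes. Those present in all 4 lists numbered 4 (7.02%) against 1.98% of all genes, 0 were in both siNT lists and neither siFOXA1 list, against 1.75%, and 0 were in both siFOXA1 lists and neither siNT list, against 0.0451%. At −log10 q of at least 5, 1 gene was retained (EEF1A1) and 2 were lost. With siFOXA1 replicate 1 left out, 2 genes were gained; without siNT replicate 1, 2 were lost, and without replicate 2 of either group 1 was lost. No list measures FOXA1 after the knockdown, so the knockdown itself was not checked here.

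The siFOXA1 lists scored 4 and 7 of the 57 genes and the siNT lists 6 and 7. The means were 5.5 ± 2.12 genes after siFOXA1 and 6.5 ± 0.707 after siNT (SD, n = 2 each), a difference of -1, which is within the spread of the lists (exact permutation test, two-sided, p = 1; 2 lists against 2 cannot go below 0.333). Without siFOXA1 replicate 1 the difference is 0.5, and at −log10 q of at least 5 it is -4 (exact permutation p = 0.333). Over all genes, 782 ± 92.6 were scored after siFOXA1 and 1618 ± 154 after siNT, 0.483 times as many, with no overlap of the lists (exact permutation p = 0.333, the smallest this design allows). With 4 to 7 genes a list and 2 lists a group, a difference of that size among the translation factor genes could not be shown.

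The larger step was between siNT and untransfected cells. The siNT lists scored 6.5 ± 0.707 translation factor genes and the untransfected lists 32.5 ± 12 (SD, n = 2 each), a ratio of 0.2 with no overlap of the lists (exact permutation p = 0.333, the smallest possible). Over all genes the ratio was 0.265. With all FGFR1 lists cut to the length of the shortest, the difference in translation factor genes was -15.5, against -26 with the lists as deposited. Transfection and the caller's background (2.19 against 3.4 and 3.5 fragments) differ together between these groups and cannot be told apart.

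The calls after transfection did not all rest on the same stretch of DNA. EIF2D had folds of 7.07 and 5 after siFOXA1 and 7.85 and 11.6 after siNT, against 6.37 and 14 in untransfected cells, and its peaks overlapped in every pair of these lists. EIF1AD had 3.86 and 4.38 after siFOXA1 and 6.59 and 5.33 after siNT; of the siFOXA1 peaks, that of replicate 1 lies at the start and that of replicate 2 (chr11:65996877-65997076) at the other end. Within 500 kb of its middle lay 30 and 29 siFOXA1 peaks and 38 and 49 siNT peaks, against genome means of 1.43 and 1.67 per Mb after siFOXA1 and 1.98 and 2.18 after siNT.

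EIF4EBP1 had 4.82 and 4.69 after siFOXA1 and 5.65 and 5.95 after siNT. Its siFOXA1 peaks, chr8:38030094-38030576 and chr8:38031531-38031741, did not overlap each other, and 122 and 155 siFOXA1 peaks and 154 and 195 siNT peaks lay within 500 kb of its middle. EEF1D had 4.38 in siFOXA1 replicate 2 only, and 4.71 and 4.7 after siNT, at places that did not overlap between the siNT replicates, with 20 and 19 siFOXA1 peaks and 35 and 36 siNT peaks within 500 kb. Peaks of both replicates overlapped after siFOXA1 at EEF1A1 and EIF2D only (3.51% of the 57, against 1.93% of all genes), and after siNT at these, EIF1AD and EIF4EBP1 (7.02% against 4.78%). Other genes were scored in a single list. EIF1 (4.69) and EIF4H (4.38) had a peak in siFOXA1 replicate 2, EIF3J (6.59) in siNT replicate 1, and EIF1B (6.27) and EIF4E1B (5.64) in siNT replicate 2.

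EEF1A1 stood apart in the transfected lists. Its FGFR1 fold enrichment was 83.6 and 81.9 after siFOXA1 and 81.6 and 81.1 after siNT, against no peak in untransfected replicate 1 and 6 in untransfected replicate 2. It ranked as peak 3 of each transfected list by fold enrichment, and as peak 4779 of 13135 in untransfected replicate 2. The highest fold of any other translation factor gene in these 4 lists was 11.6, at EIF2D. The 4 EEF1A1 values lie within 2.5 of each other. The number of fragments piled up at the summit, recovered from the fold, was 259 and 261 after siFOXA1 and 259 and 258 after siNT, against 26 in untransfected replicate 2.

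The shape of this peak was also fixed. EEF1A1 lies at chr6:73515750-73521032 on the minus strand. The peak ran over chr6:73520865-73521363 and chr6:73520869-73521362 after siFOXA1, and over chr6:73520867-73521364 and chr6:73520869-73521362 after siNT. Measured from the start it reached out to -330 to -332 bp, which takes in all the EEF1A1 bases shown above, and into the gene as far as 163 to 167 bp. Over the 4 lists its lower edge varied by 4 bp and its upper edge by 2 bp. Of 806 regions with a peak in all 4 transfected lists, 4 had both edges within 4 bp, EEF1A1 being 1 of them, and the median of the larger edge range was 133 bp. Among the 42 of them with a fold of at least 20 in all lists the median was 58.5 bp, and 3, again with EEF1A1 among them, had both edges within 4 bp.

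The peak in untransfected replicate 2 was narrower (324 bp) and lay farther into the gene, between -112 and 211 bp, with its summit at 64 bp; the transfected summits lay at -91 and -66 bp after siFOXA1 and -34 and -91 bp after siNT. At the same place H3K4me3 and H3K27ac had a gap between flanking peaks, with folds of 82.5 and 82.8 for H3K4me3 and 29 and 30.5 for H3K27ac inside the gene. FOXA1 had 5.84 and 7.69 there. EEF1A2, the paralogue, had no peak in any transfected list. Around EEF1A1, 1 and 3 peaks lay within 500 kb after siFOXA1 and 1 and 2 after siNT, so the strong peak is not part of a crowded stretch. Peak lists hold no reads, so whether all these fragments came from the chromosomal gene, and not from other DNA of the same sequence, was not tested, and neither was why the peak is strong in transfected cells. The folds of this gene after transfection are therefore given as measured and not as a level of FGFR1 on its chromatin.

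**Figure D5:**
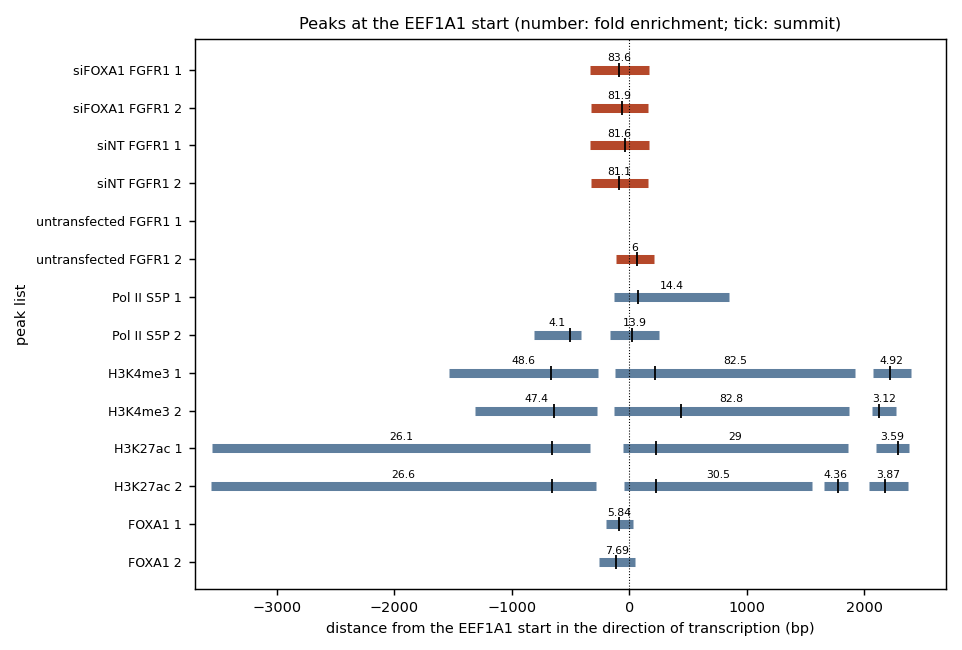
Peaks around the EEF1A1 start in the 14 lists (rows, group and replicate), by distance from the start in the direction of transcription (bp); numbers are fold enrichments and ticks summits. The 4 transfected FGFR1 peaks share their edges, near -331 and 165 bp, with folds of 81.1 to 83.6, while untransfected FGFR1 has no peak in replicate 1 and one of fold 6 in replicate 2.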

How the data were processed

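ChIP-seq libraries of CAMA1 cells were run by the authors on an Illumina NextSeq 500 after sonication and immunoprecipitation, per the labels' protocols. Bowtie2, SAMtools, Picard, MACS2 and the build hg38 are named in the submitters' processing notes; versions and roles are not given in the sources used here. The authors deposited a peak list for each of 14 libraries, so peaks were called per library. Each deposited row gives a score (not used), a fold enrichment that is a linear ratio over the caller's background, −log10 values of p and of q, and a summit. Names written in the rows carry other replicate numbers for untransfected FGFR1 and read FOXA2 in the FOXA1 lists; GEO's labels were followed instead.

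Gene ends were taken from a RefSeq gene table of GRCh38.p14, whose primary assembly is that of hg38; it gives no exons. Strands and starts came from the RefSeq promoter table, for 47 of the 57 genes, and 10 had no entry. EIF1AY, on Y, lies outside the rule. A gene was scored in a list when a peak overlapped a window of 1 kb to each side of either end by at least 1 bp, and called for a group when scored in both lists. Percentiles rank peaks by fold enrichment within a list, and folds of different lists stand side by side as a description, with no test of levels. The caller's background was recovered from the −log10 p-values and fold enrichments of the deposited rows, which gave whole pileups within 0.05 in 12 lists; the Pol II S5P lists gave none. In 9 lists the highest pileup was 400 fragments, which may cap the strongest peaks. An interval for counts of reads was not computed, as the lists give no totals.

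The numbers of genes scored per list were compared by exact permutation tests, two-sided. The genes, the pathway lists and the tests were chosen with earlier results of these data known, and no test of enrichment was made. The genes named were EEF1A1, the 10 with the highest mean FGFR1 percentile among those called, every gene called after siNT or gained after siFOXA1, every gene without an H3K4me3 call, the 5 strongest for Pol II S5P without an FGFR1 call, EIF4EBP1, and sets of paralogues. Other genes of the 57 were named, after their values were seen, to complete each role. The window search was tested on simulated data. Alternatives were windows of 500 bp and 3 kb, −log10 q of at least 5, summits in place of peaks, a peak in either list, lists of equal length, starts only, EIF3K added, near-identical copies left out, each list left out and a replicate block. Python 3.11.15, pandas 2.3.3, numpy 2.4.6, scipy 1.17.1 and matplotlib 3.10.9 were used.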

Additional observations from a re-analysis of the deposited data

How the results depend on the processing

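Of 144 alternative values, 124 kept their direction or, for counts of genes called, lay within 1.5 times the reported count. The FGFR1 count of 24 genes became 41 with a peak in either list, and 24 to 41 with either list left out; it rests on replicate 1. The FOXA1 count of 32 became 21 with the annotated start only and 21 with every start of the promoter table. The siFOXA1 count of 4 became 1 at −log10 q of at least 5 (EEF1A1), 2 with the annotated start only, 2 with every start, 2 with overlapping peaks, 7 with a peak in either list, and 4 to 7 with a list left out. The siNT count of 5 became 3 with the annotated start only, 3 with every start and 8 with a peak in either list. The FGFR1 count of 24 was 16 with the annotated start only and 17 with every start. The 10 genes without a promoter entry could not be called in these start settings, whatever their peaks. EIF4EBP1 and EEF1D, which dropped out of the siNT count, are among them. At −log10 q of at least 5, 2 genes were lost and 1 was retained after siFOXA1. With a list left out, 0 to 2 genes were lost, 4 to 5 retained and 0 to 2 gained. The difference between siFOXA1 and siNT of -1 gene ran from -2.5 to 0.5 with a list left out, and reversed to 0.5 without siFOXA1 replicate 1. It was -4 at −log10 q of at least 5 (exact permutation p = 0.333) and -0.5 with 3 kb or lists of equal length. The difference between siNT and untransfected cells ran from -34.5 to -17.5 with a list left out and was -15.5 with lists of equal length. The cause was not tested. EEF1A1 stayed at rank 3 by −log10 p and with 3 kb.

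With the replicate block the differences were -1 (exact sign-flip permutation p = 1) and -26 genes (exact permutation p = 0.5). Same-numbered lists did not deviate together (correlations over genes of 0.0057 and -0.024), and the numbers share no stated day or culture, so the samples were not paired. Every start of the promoter table, overlapping peaks, and, for lost, retained and gained genes, the left-out lists and summits were chosen after seeing the data. A peak list holds what passed the caller, so a gene without a peak may carry FGFR1 below that level, most of all in replicate 1 and the transfected lists.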

Other observations

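Genes that act on the translation factors, or beside them, had peaks as well. Of the 10 kinase and methyltransferase genes left out by the letter K, FGFR1 was called in untransfected cells at 4, against 19.8% of all genes. These were EEF2K, EIF2AK1, EIF2AK4 and EEF1AKMT4. Pol II S5P was called at 9 of the 10 (38.8% of all genes) and H3K4me3 at 10 (66.4%). EEF2K, the kinase that inactivates eEF2, had FGFR1 folds of 8.16 and 6.89 after siNT and no peak after siFOXA1, against 7.05 and 5.55 in untransfected cells. EIF3K, the eIF3 subunit with the same letter, had Pol II S5P and FOXA1 but no FGFR1 call. Of 8 enzymes that make hypusine on eIF5A or diphthamide on eEF2, FGFR1 was called at 3 (DPH5, DPH6 and DPH7), against 19.8% of all genes. DPH7 had 8.47 and 10 after siNT and no peak after siFOXA1, against 7.51 and 10.4 in untransfected cells. Of all genes, 1.75% were lost in this way. DPH5, also called after siNT (6.28 and 7.21), had 4.82 in siFOXA1 replicate 1 only.

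Of 18 termination, recycling and initiation helpers, FGFR1 was called at 2 after siFOXA1 (2.24% of all genes), at 5 after siNT (5.15%) and at 8 in untransfected cells (19.8%). MKNK2, a kinase of eIF4E, had the highest untransfected folds of those named here, 14.6 and 24.9, with Pol II S5P at 35.8 and 27.5; it had 4.69 in siFOXA1 replicate 2 only, against 6.9 and 6.89 after siNT. PABPC1, the poly(A)-binding protein, had 5.47 and 4.06 after siFOXA1 and 5.96 and 4.39 after siNT, against 13.6 and 18.4 in untransfected cells. LARP1, which binds TOP mRNAs, had 6.75 and 6.57 after siFOXA1 and 9.42 and 5.33 after siNT, against 7.96 and 11.5 in untransfected cells, and had Pol II S5P in replicate 1 only (8.46). Of 8 factors of mitochondrial translation and selenocysteine insertion, FGFR1 was called at 4 (GFM2, MTIF3, EEFSEC and SECISBP2), against 19.8% of all genes. Pol II S5P was called at all 8, against 38.8%. After either transfection FGFR1 was called at 0 of the 8. Over all genes the shares were 2.24% after siFOXA1 and 5.15% after siNT, from which 0 of 8 cannot be told apart. These are counts over lists of 2 replicates, with no test.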
